A study of Mus musculus with 10 samples.

Results

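The hexosamine pathway makes UDP-GlcNAc, the nucleotide sugar that feeds glycan synthesis and O-GlcNAc modification of proteins, and 10 of its genes were followed here in lung tumours of mice, out of 39017 genes in the count table. The genes were found by exact symbol, 1 row each, and all 10 passed the filter on low counts: Gfpt1, Gfpt2, Gnpnat1, Pgm3 and Uap1 of UDP-GlcNAc synthesis, Ogt of O-GlcNAc transfer, and Nagk, Amdhd2, Gnpda1 and Gnpda2 of salvage and breakdown. RNA was sequenced from 10 libraries, 5 of control tumours (KP) and 5 of tumours deleted for the glucose transporter gene Slc2a1, which encodes Glut1 (KPG1). All animals were male on a C57BL/6 background, received an adenovirus (Ad5) that expresses Cre from the SPC promoter of alveolar type 2 cells, and were killed 18 weeks and 6 days later. KPG1 mice were homozygous for the floxed Glut1 allele (fl/fl). For KP, the genotype tag reads heterozygous fl/wt while the growth protocol lists no floxed Glut1 allele, and the study's methods state that controls may be either wild type or heterozygous, so that whether these 5 controls carry 1 floxed copy is not settled. Both groups also carry the same tumour-initiating alleles. Tumours were macrodissected, dissociated and depleted of CD45+ immune cells, so each library is a bulk CD45- fraction that can hold stroma and cells that escaped Cre. Ages at infection are not given in the sources used here, and nothing states whether a library pools animals, so p-values measure only the spread between these libraries.

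In the pathway, glucose and glutamine carbon and nitrogen meet at glutamine:fructose-6-phosphate transaminase (Gfpt1 or its isozyme Gfpt2), the rate-limiting step. Gnpnat1 then adds the acetyl group, Pgm3 moves the phosphate and Uap1 adds UDP. Ogt transfers GlcNAc from UDP-GlcNAc to serine and threonine of nuclear and cytosolic proteins, and Oga removes it. Nagk returns free GlcNAc to the pathway, Amdhd2 takes the acetyl group off GlcNAc-6-phosphate, and Gnpda1 and Gnpda2 turn glucosamine-6-phosphate back into fructose-6-phosphate, the reverse of the Gfpt step. Since glucose feeds the pathway, the question asked of these genes was whether their RNA differed between tumours with and without Glut1.

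Depth ranged from 32427029 to 49534284 counts per library. Slc2a1 stood at 102 ± 25.4 CPM (counts scaled to library size; SD, n = 5) in KP and at 50.1 ± 10.1 CPM (SD, n = 5) in KPG1, without overlap, so that the log2 fold change was -1.01 (limma, SE 0.20, adjusted p = 0.0675). All 8 alveolar type 2 markers were present, with summed levels of 41295 to 115928 TPM in KP and 110445 to 182141 TPM in KPG1 (TPM is scaled for exon length and library size). KP 1 held the lowest value and KP 4 the next, at 51009 TPM. Sftpc, with a mean of 58800 TPM over all libraries, made up much of this sum. All 8 markers were fitted higher in KPG1 (limma, median log2 fold change 0.64), 0 of them with an adjusted p under 0.05. All 7 proliferation genes were also fitted higher (median 0.86), while 5 of the 7 leukocyte markers tested were fitted lower. Of 8 leukocyte markers 7 passed the filter, Cd3e had 0 to 8 counts, and their sum was 86.8 to 147 TPM in KP and 56.1 to 114 TPM in KPG1. Endothelial markers summed to 145 to 499 TPM in KP and 248 to 681 TPM in KPG1. KP 1 and KP 5 stood apart, at the 2 ends of the first principal component (28.0% of the variance), and KP 5 had 20.5 TPM of proliferation genes against 104 to 140 TPM in the other KP libraries and 108 to 219 TPM in KPG1. In bulk samples, fewer cells of a type and less RNA per cell cannot be told apart.

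The sequence upstream of the start site is shown for the isozymes Gfpt1 and Gfpt2, which differ most in level within a step, and for Amdhd2, which carries the motif that stands out among these promoters. Each run is the 250 bases before the start site, 5′ to 3′ along the gene, from RefSeq on GRCm38.p6, with every ACGTG (the core of the hypoxia response element) on either strand in capitals, so that a whole E-box, CACGTG, appears as 6 capitals.
Gfpt1 chr6:87042596-87042845 (+ strand): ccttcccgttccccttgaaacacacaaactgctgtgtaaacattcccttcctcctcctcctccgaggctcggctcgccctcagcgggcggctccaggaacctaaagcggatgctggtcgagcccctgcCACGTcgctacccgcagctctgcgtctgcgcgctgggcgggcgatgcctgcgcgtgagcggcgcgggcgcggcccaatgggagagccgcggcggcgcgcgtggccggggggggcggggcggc
Gfpt2 chr11:49793905-49794154 (+ strand): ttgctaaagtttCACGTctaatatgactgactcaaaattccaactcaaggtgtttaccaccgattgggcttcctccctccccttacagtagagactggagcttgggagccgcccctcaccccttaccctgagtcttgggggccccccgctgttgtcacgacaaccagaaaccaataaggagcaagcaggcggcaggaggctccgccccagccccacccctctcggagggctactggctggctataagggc
Amdhd2 chr17:24163734-24163983 (- strand): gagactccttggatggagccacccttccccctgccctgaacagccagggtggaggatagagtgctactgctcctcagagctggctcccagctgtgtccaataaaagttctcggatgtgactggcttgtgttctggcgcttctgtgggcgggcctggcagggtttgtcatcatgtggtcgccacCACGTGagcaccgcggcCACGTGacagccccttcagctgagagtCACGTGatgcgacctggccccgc
RefSeq promoters (250 bases before to 50 after the start) were at hand for 8 of the 10 genes. Amdhd2 held 3 E-boxes, the letters bound by basic helix-loop-helix factors, starting 67, 50 and 23 bases before the start site. Of 32851 mouse promoters of this length 7.15% held at least 1 E-box and 0.0883% at least 3, and none of the other 7 genes had one. The core ACGTG, which also lies inside each E-box and so in Amdhd2, was found once each in Gfpt1, Gfpt2, Pgm3 and Uap1. Of all promoters 19.6% held at least 1. None of the 8 held the cyclic AMP element TGACGTCA (1.79% of promoters), the unfolded protein element TGACGTGG (0.676%) or the amino acid response element TGATGNAA (3.97%) on either strand. The Gfpt1 promoter was 70.3% G and C with 38 CpG, and that of Gfpt2 60.7% with 15 CpG, beside a median of 52.7% and 7 CpG over all promoters. The other promoters of these genes had from 11 CpG (Gnpda2) to 33 CpG (Pgm3). ACGTG itself holds a CpG, and the shares over all promoters were not matched for CpG. These matches are a description of letters, and no binding was measured.

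Within the pathway the levels per exon length spanned a wide range, with Gfpt1 and Ogt at the top and Gfpt2 at the bottom. Over all 10 libraries the mean level was 151 TPM for Gfpt1, 127 TPM for Ogt, 55.2 TPM for Uap1, 38.7 TPM for Nagk, 36.4 TPM for Gnpnat1, 31.9 TPM for Amdhd2, 27.8 TPM for Pgm3, 18.0 TPM for Gnpda2, 11.1 TPM for Gnpda1 and 2.52 TPM for Gfpt2. Neighbours in this order were compared within libraries by a two-sided exact permutation test that flips the sign of the log2 ratio in each of the 10 libraries (1024 patterns, smallest p 0.00195), adjusted over the 9 neighbour pairs. The steps from Ogt to Uap1, Uap1 to Nagk, Pgm3 to Gnpda2, Gnpda2 to Gnpda1 and Gnpda1 to Gfpt2 held in all 10 libraries (adjusted exact p = 0.00352 each, at the smallest p the test can give). The order was taken from these same libraries, so the tests only describe how steadily it held. They also cannot see an offset shared by all libraries, such as one from the exon lengths used. Gfpt1 exceeded Ogt in 8 of 10 libraries (ratio 1.18, adjusted exact p = 0.236), and the order among Nagk, Gnpnat1, Amdhd2 and Pgm3 was not resolved (adjusted exact p = 0.188 to 0.418). The entry enzyme and the transferase were above all the other genes in TPM in all 10 libraries. Gfpt1 had a mean log2 CPM above that of 98.5% of the 16216 genes tested, and Ogt above that of 97.0%.

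**Figure D1:**
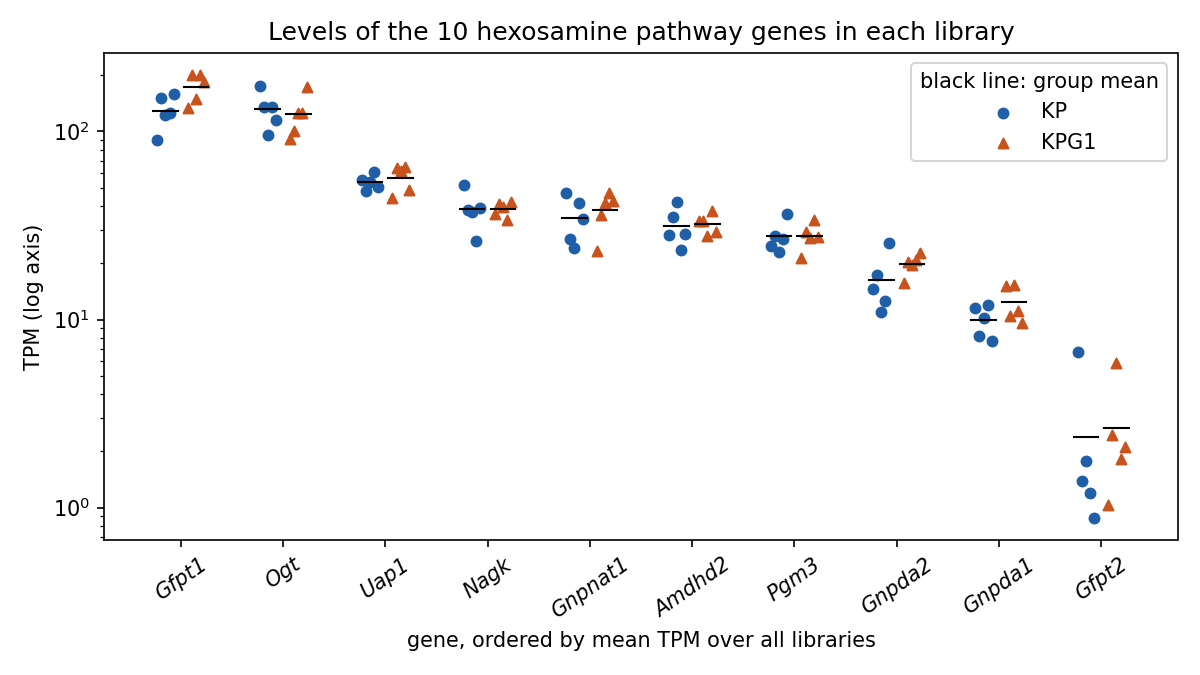
Level of each of the 10 genes in TPM (log axis) in each of 5 KP (blue circles) and 5 KPG1 (orange triangles) libraries, with a black line at the group mean. Gfpt1 averaged 129 TPM in KP and 173 TPM in KPG1, and the groups overlap for every gene.

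None of the 10 genes passed the threshold between KPG1 and KP. The test was limma-voom on the counts with Benjamini-Hochberg adjustment over all 16216 genes, threshold 0.05, and it called 28 genes (0.173% of those tested), 10 higher and 18 lower in KPG1. Of the 10 pathway genes 0 were called, 0 had an unadjusted p under 0.05 (11.6% of all genes did) and 0 had groups that did not overlap (2.81% of all genes). edgeR and DESeq2 also called 0 of the 10 and gave 0 with an unadjusted p under 0.05. The fitted log2 fold change was above 0 for 8 and below 0 for 2, with a median of 0.09, beside 8547 above and 7669 below and a median of 0.02 over all genes tested. The intervals show what these data allow: for Uap1 the 95% interval ran from 0.86-fold to 1.25-fold and for Ogt from 0.71-fold to 1.22-fold, while for Gfpt2 it ran from 0.56-fold to 2.81-fold.

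**Figure D2:**
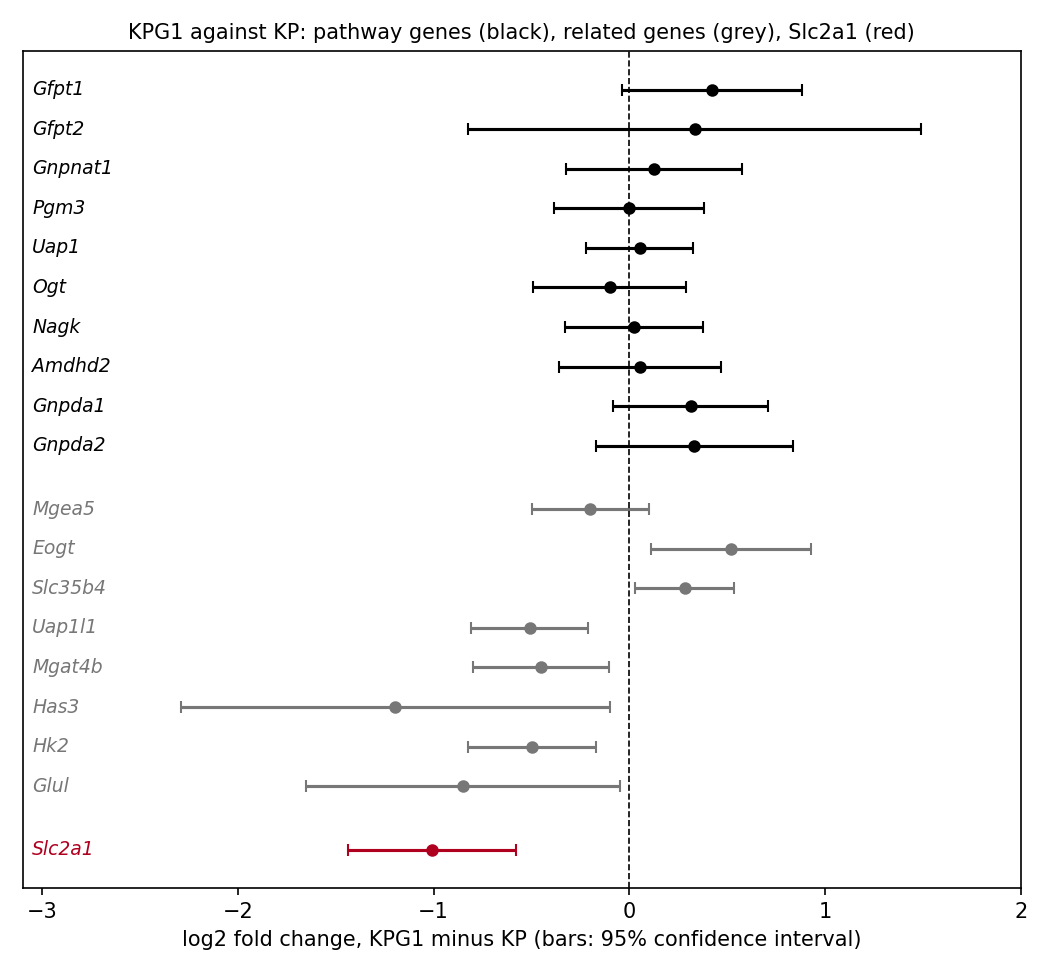
Fitted log2 fold change, KPG1 minus KP, with its 95% confidence interval, for the 10 pathway genes (black), Oga (annotated as Mgea5) and 7 related genes with an unadjusted p under 0.05 (grey), and Slc2a1 (red). Every black interval includes 0, and Gfpt1, at 0.42, comes nearest to leaving it out.

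Gfpt1, the main entry enzyme (chr6:87042846-87092197 on mm10, + strand), had the smallest p of the 10. KP 1 to KP 5 had log2 CPM values of 7.89, 8.85, 8.55, 8.51 and 8.99, and KPG1 1 to KPG1 5 had 8.72, 9.23, 8.65, 9.19 and 9.10. KP 1 was the lowest of the 10 libraries, and the ranges overlapped between 8.65 and 8.99. The fitted log2 fold change was 0.42 (limma, SE 0.21, 95% interval -0.04 to 0.88, adjusted p = 0.468), and 14.5% of all genes tested had a smaller p. KP 1, where Gfpt1 was lowest, was also the library with the lowest alveolar type 2 sum, 41295 TPM. By this sum, other libraries did not keep this order: KPG1 1 had the highest sum, 182141 TPM, but the next to lowest Gfpt1 of KPG1. KP 5, with the most Gfpt1 of KP, had a sum of 93893 TPM, below those of KP 2 and KP 3. The result depended on the summary used. The mean log2 CPM of the same 8 markers was 9.91, 11.92, 11.82, 10.93 and 12.06 in KP 1 to KP 5, the same order as Gfpt1. In KPG1 1 to KPG1 5 this mean was 12.50, 12.15, 11.54, 11.85 and 11.97. It was lowest in KPG1 3, as was Gfpt1, but highest in KPG1 1. Without KP 1 the log2 fold change was 0.26 (limma adjusted p = 0.609), and the part of cell make-up in the difference was not tested. Gfpt1 took 27.3 ± 5.63% of the summed TPM of the 10 genes in KP (SD, n = 5) and 32.9 ± 3.09% in KPG1 (SD, n = 5). The genes whose group-centred log2 CPM was most like that of Gfpt1 among 12876 searched were 2610528J11Rik (r = 0.973), Rnf186 (r = 0.969), a ubiquitin ligase, and Elovl5 (r = 0.961), a fatty acid elongase. All points share the same 10 libraries, and these genes were picked as the highest and were not tested, so they show no shared control.

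Gfpt2, the second isozyme (chr11:49794178-49838613, + strand), was a minor transcript with 69 to 408 counts per library. KP 1 to KP 5 had log2 CPM values of 3.31, 1.27, 1.62, 0.99 and 0.71, and KPG1 1 to KPG1 5 had 0.90, 2.06, 3.16, 1.60 and 1.82. One library of each group, KP 1 and KPG1 3, stood above the rest, and the SD within groups was larger than that of 90.7% of all genes tested in KP and 92.1% in KPG1. The fitted log2 fold change of 0.33 (limma, SE 0.53, adjusted p = 0.848) was smaller than its error, and it moved with single libraries: it was 0.78 without KP 1, 0.087 without KP 5 and 0.0064 without KPG1 3. As a share of the summed TPM of both isozymes, Gfpt2 made up 6.95% in KP 1 and 0.558 to 1.44% in the other KP libraries, and 3.82% in KPG1 3 and 0.771 to 1.22% in the other KPG1 libraries. The level of Gfpt1 per exon length was thus 13.4 to 178 times that of Gfpt2 (median 95.8 times), so the isozyme balance favoured Gfpt1 in all 10 libraries. KP 1 also had the highest sums of smooth muscle and pericyte markers (359 TPM against 45.7 to 117 TPM in the other KP libraries) and of fibroblast markers (117 TPM against 35.8 to 92.8 TPM). KPG1 3 did not have the highest of either in its group (154 TPM, where KPG1 5 had 173 TPM, and 89.8 TPM, where KPG1 1 had 102 TPM), but had the highest sums of leukocyte markers (114 TPM) and proliferation genes (219 TPM) in KPG1. The part of these cells in the Gfpt2 level was not tested.

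**Figure D3:**
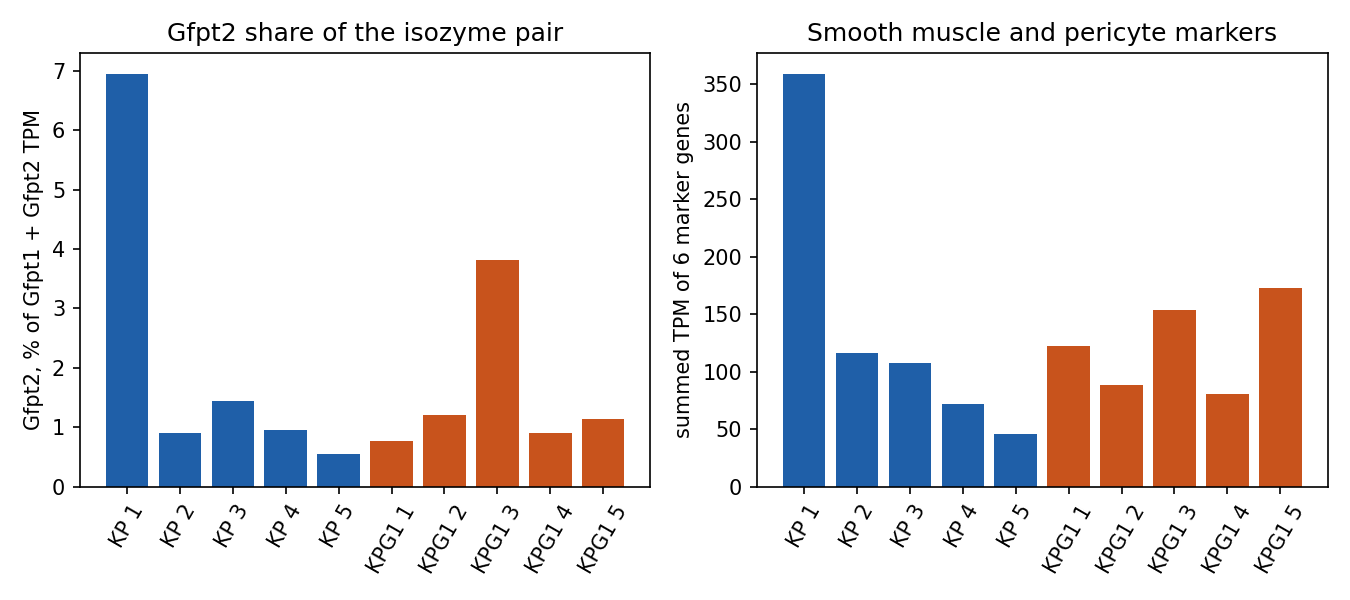
Left, Gfpt2 as a percentage of the summed TPM of Gfpt1 and Gfpt2 in each library, and right, the summed TPM of 6 smooth muscle and pericyte markers in the same libraries (KP blue, KPG1 orange). KP 1 is highest in both panels (6.95% and 359 TPM), while KPG1 3 stands out only on the left (3.82%).

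The 3 steps that follow showed small fitted differences. Gnpnat1, the acetyltransferase (chr14:45376334-45404913, - strand), had a log2 CPM of 5.12 to 5.87 in KP and 5.11 to 6.02 in KPG1, for a log2 fold change of 0.13 (limma, SE 0.20, adjusted p = 0.853). Of its 4735 exon bases 3878 overlap those of Styx on the opposite strand, and whether reads were counted by strand is not given in the sources used here. Its level is therefore uncertain. Styx itself had 901 counts over all libraries, which does not settle the level of Gnpnat1. Pgm3, the phosphate mutase (chr9:86554377-86571842, - strand), had a log2 CPM of 4.86 to 5.71 in KP and 4.90 to 5.47 in KPG1, and a log2 fold change of -0.0035 (limma, SE 0.17, 95% interval -0.39 to 0.38, adjusted p = 0.997). It shares 1270 exon bases with Dop1a on the opposite strand, under the same uncertainty. Uap1, the pyrophosphorylase that completes UDP-GlcNAc (chr1:170141938-170174957, - strand), was the steadiest of the 10 in KP, at 5.87, 5.89, 6.05, 6.14 and 6.02 in KP 1 to KP 5 and 5.80, 6.27, 6.06, 6.24 and 5.87 in KPG1 1 to KPG1 5 (log2 CPM). Only 2.60% of all genes tested had a smaller SD in KP, and the log2 fold change was 0.05 (limma, SE 0.12, adjusted p = 0.902). Summed over the 5 synthesis genes, the level was 248 ± 23.8 TPM in KP and 298 ± 48.1 TPM in KPG1 (SD, n = 5 each), with ranges of 223 to 280 TPM and 223 to 346 TPM that overlapped.

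Ogt, the only O-GlcNAc transferase of nuclear and cytosolic proteins (chrX:101640060-101684351, + strand), had nearly the same range in both groups. KP 1 to KP 5 had log2 CPM values of 8.53, 8.37, 7.87, 8.29 and 8.20, and KPG1 1 to KPG1 5 had 7.84, 7.93, 8.09, 8.21 and 8.68. The highest value was KPG1 5 and the lowest KPG1 1, with all KP libraries between them, and the log2 fold change was -0.10 (limma, SE 0.18, 95% interval -0.49 to 0.29, adjusted p = 0.863). Oga (Mgea5), the hydrolase that removes O-GlcNAc, had 7.78 to 8.24 in KP and 7.58 to 8.08 in KPG1 (log2 CPM), with a log2 fold change of -0.20 (limma, SE 0.14, adjusted p = 0.606). Oga shares 551 exon bases with Gm15491 on the opposite strand (90 counts over all libraries), with the strand setting again not known. The balance of writer and eraser, log2 CPM of Ogt minus that of Oga, was 0.26 ± 0.18 in KP and 0.35 ± 0.25 in KPG1 (SD, n = 5 each), a difference of 0.097 with p = 0.476 in a two-sided exact permutation test (smallest p 0.00794). Leaving out single libraries gave differences of 0.035 (without KPG1 5) to 0.18 (without KPG1 1). Per exon length Ogt exceeded Oga in all 10 libraries, by 1.09 to 1.62 times in TPM. The genes most like Ogt in group-centred log2 CPM were Upf3b (r = 0.946), of nonsense-mediated decay, Gm7846 (r = 0.944) and Cc2d2a (r = 0.930), a protein of the ciliary transition zone, over the same 10 libraries. They were picked as the highest of 12876 genes searched and were not tested, so they show no shared control.

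Of salvage and breakdown, Nagk and Amdhd2 had fitted differences near 0. Nagk, the GlcNAc kinase (chr6:83794982-83804018, + strand), had a log2 CPM of 5.15 to 6.01 in KP and 5.53 to 5.88 in KPG1, for a log2 fold change of 0.03 (limma, SE 0.16, adjusted p = 0.967). Amdhd2, the deacetylase whose promoter holds the 3 E-boxes shown above (chr17:24155833-24163766, - strand), stood at 4.77, 5.29, 5.56, 4.63 and 5.07 in KP 1 to KP 5 and at 5.26, 5.20, 4.78, 5.33 and 4.99 in KPG1 1 to KPG1 5 (log2 CPM). The KPG1 values lay inside the range of KP, and the log2 fold change was 0.05 (limma, SE 0.19, adjusted p = 0.937). For both genes the sign of this difference changed when single libraries were left out.

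The isozymes Gnpda1 and Gnpda2, the deaminases that run against the Gfpt step, ran opposite to each other from library to library within both groups. Gnpda1 (chr18:38327535-38339003, - strand) had a log2 CPM of 3.71, 3.42, 3.75, 3.89 and 3.42 in KP 1 to KP 5 and 4.36, 3.77, 4.16, 3.81 and 3.62 in KPG1 1 to KPG1 5, with 340 to 937 counts per library. Gnpda2 (chr5:69573108-69592340, - strand, with 1022 exon bases shared with Guf1 on the opposite strand) had 4.72, 5.17, 4.52, 4.64 and 5.81 in KP and 5.07, 5.39, 5.18, 5.38 and 5.52 in KPG1. Guf1 had 13895 counts over all libraries, so the level of Gnpda2, and the relation described next, carry the same uncertainty over strand. In KPG1, the order of the libraries from lowest to highest Gnpda1 was the exact reverse of the order in Gnpda2, and in KP the library highest in Gnpda2, KP 5, was the lowest in Gnpda1. The correlation of group-centred values was r = -0.72 (two-sided exact permutation within groups, 14400 rearrangements, p = 0.000625, adjusted p = 0.0281 over the 45 pairs of genes) and Spearman's rho was -0.83 (exact permutation p = 0.000694, adjusted p = 0.0313). Without KPG1 1 and KPG1 5, the libraries farthest from the median of Gnpda1, r was -0.77, and within groups of 5 it was -0.85 in KP and -0.996 in KPG1, as a description. The size of r held but its adjusted call did not: with RLE scaling r was -0.69 (adjusted exact permutation p = 0.0875), on log2 TPM it was -0.71 (adjusted exact permutation p = 0.168), and leaving out any library other than KP 4 gave r of -0.86 to -0.71 with adjusted exact permutation p of 0.0781 to 0.203.

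In KPG1 the summed TPM of both deaminases varied less than either gene, with a coefficient of variation of 5.19% against 21.9% for Gnpda1 and 13.1% for Gnpda2. In KP it was 17.2% for the sum, 19.2% for Gnpda1 and 35.8% for Gnpda2. A lower variation of the sum follows from the opposite course of these genes in the same libraries, so it is no separate observation. Gnpda2 made up 60.7 ± 11.2% of the pair in KP and 61.6 ± 7.97% in KPG1 (SD, n = 5 each, share of TPM), so the group means of the balance lay within the spread. KP 5, with the most Gnpda2 and the least Gnpda1 of the KP libraries, with KP 2 close to it in Gnpda1, had the lowest endothelial sum of all libraries, 145 TPM, and KPG1 1, with the most Gnpda1 and the least Gnpda2 of KPG1, had the highest, 681 TPM. KPG1 5, with the least Gnpda1 of KPG1, stood at 384 TPM. Other libraries did not keep this order: KPG1 4, in the middle for both genes, had the lowest endothelial sum of KPG1, 248 TPM. KP 4, with the most Gnpda1 of KP, stood at 306 TPM. KP 5 was also lowest of all libraries in fibroblast (35.8 TPM), smooth muscle and pericyte (45.7 TPM) and proliferation (20.5 TPM) sums. KPG1 1 was also highest in the alveolar type 2 sum, 182141 TPM. The part of cell make-up in the pattern was not tested.

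**Figure D4:**
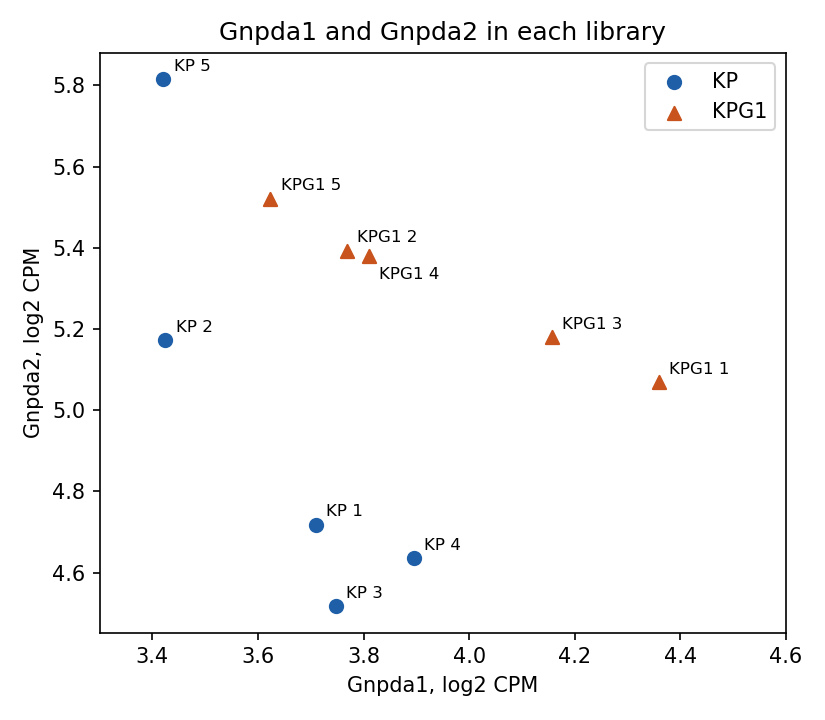
Log2 CPM of Gnpda1 (x axis) against that of Gnpda2 (y axis) in each of the 10 libraries, KP in blue circles and KPG1 in orange triangles. Within each group the points run from upper left to lower right, from KPG1 5 (3.62, 5.52) to KPG1 1 (4.36, 5.07).

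Between the groups both deaminases were fitted higher in KPG1 without passing the test. The log2 fold change was 0.31 for Gnpda1 (limma, SE 0.18, 95% interval -0.08 to 0.71, adjusted p = 0.530) and 0.33 for Gnpda2 (limma, SE 0.23, 95% interval -0.17 to 0.84, adjusted p = 0.609). Both values varied with single libraries. For Gnpda1 the log2 fold change was 0.19 without KPG1 1, its highest library. For Gnpda2 it was 0.54 without KP 5, the highest of all 10 libraries (limma adjusted p = 0.104), and 0.21 without KP 3, the lowest. Summed over the 3 breakdown genes Amdhd2, Gnpda1 and Gnpda2 (Nagk not included) the level was 57.6 ± 6.48 TPM in KP and 64.3 ± 3.18 TPM in KPG1 (SD, n = 5 each).

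Of the 45 pairs among the 10 genes, 23 correlated positively and 22 negatively, and Gnpda1 with Gnpda2 was the only pair with an adjusted p under 0.05. The next were Gnpda2 with Pgm3 (r = 0.86, exact permutation p = 0.00597, adjusted p = 0.128; rho = 0.75) and Gfpt1 with Pgm3 (r = 0.85, exact permutation p = 0.00854, adjusted p = 0.128; rho = 0.89), neither past the threshold. Gfpt1 and Gfpt2, in contrast, gave r = -0.67 (exact permutation p = 0.069) that rested on KP 1 and KPG1 3: without them r was 0.24. The pathway genes thus showed no single shared pattern over the libraries.

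Around the pathway, 40 related genes of sugar supply, glycan branching, hyaluronan, sialic acid and O-GlcNAc were listed, 39 of them were tested, and 0 passed the threshold with limma. Of the 39, 2 had an unadjusted p under 0.05 and were fitted higher and 5 were fitted lower, together 7. Groups did not overlap for 2 of the 39, beside 2.81% of all genes tested. Uap1l1, a paralogue of Uap1, had 5.71 to 6.37 in KP and 5.46 to 5.70 in KPG1 (log2 CPM), without overlap, and a log2 fold change of -0.51 (limma, SE 0.14, adjusted p = 0.199). It was the 1 gene of these 39 that DESeq2 called, where DESeq2 called 545 of all 16216 genes tested. Hk2, the hexokinase that phosphorylates glucose on entry, had 7.47 to 7.95 in KP and 6.86 to 7.46 in KPG1 (log2 CPM), without overlap by a narrow margin, and a log2 fold change of -0.50 (limma, SE 0.15, adjusted p = 0.239). Glul, which makes glutamine, the nitrogen donor of the Gfpt step, had a log2 CPM of 6.92 to 8.36 in KP and 6.29 to 8.13 in KPG1, for a log2 fold change of -0.85 (limma, SE 0.37, adjusted p = 0.402).

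Genes that use UDP-GlcNAc or carry it into the secretory pathway showed values in both directions. Eogt, which adds O-GlcNAc to secreted and membrane proteins, had a log2 fold change of 0.52 (limma, SE 0.19, adjusted p = 0.322), and the nucleotide sugar transporter gene Slc35b4 had 0.28 (limma, SE 0.12, adjusted p = 0.377). Mgat4b, a branching enzyme of N-glycans, had -0.45 (limma, SE 0.16, adjusted p = 0.311). Has3, a hyaluronan synthase with 34 to 253 counts per library, had -1.20 (limma, SE 0.50, 95% interval -2.29 to -0.10, adjusted p = 0.388). These 7 of 39 genes with an unadjusted p under 0.05 stand beside 11.6% of all genes.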

How the data were processed

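The authors deposited raw gene counts per library, made, per the labels and methods, from polyA RNA libraries of a stranded kit with bcl2fastq 2.17, cutadapt, HISAT2 and featureCounts 1.4.4 on mm10; the strand setting of counting is not given in the sources used here. A log-scale table was not used. The combined table equalled the single-library files in 390170 of 390170 values. Counts were filtered with filterByExpr (16216 of 39017 genes kept), scaled by TMM and tested with voom and limma 3.58.1 in R 4.3.3, the study's method, two-sided with Benjamini-Hochberg adjustment. Log2 CPM used a prior count of 2. TPM was computed from union exon lengths of the GENCODE annotation, found for 37607 gene identifiers; the study's own TPM filter was run as an alternative. The test was checked on simulated counts. Alternatives were edgeR 4.0.16, DESeq2 1.42.0, RLE factors, no filter, mean TPM of at least 20, library weights, replicate block, library number and leaving out libraries. The genes and lists were chosen with earlier results of these data known; all 10 pathway genes, Slc2a1, Oga, related genes with an unadjusted p under 0.05 (up to 8) and the 3 genes most like Gfpt1 and Ogt were named. Correlations between genes and the comparison of levels were added after the data were seen. Gfpt2 had the fewest counts of the 10, 69 to 408 per library. The tumour-initiating alleles and 1 gene of the related lists are not reported here, and counts over those lists leave that gene out.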

Additional observations from a re-analysis of the deposited data

Results flagged for a closer look

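The share of Gfpt2 in the summed TPM of Gfpt1 and Gfpt2 had a library far from the others in both groups. In KP, KP 1 was at 6.95% and the gap to the next library, divided by the range of the group, was 0.863. In KPG1, KPG1 3 was at 3.82% with a gap of 0.854. Both exceed Dixon's 95% critical value of 0.71 for 5 samples. Of 28 groups of values searched, 2 were marked in this way, where chance marks about 1 in 20, or 1.4. The log2 CPM of Gfpt2 was among the values searched and was marked in neither group, so the marks hold for the share on its percentage scale.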

How the results depend on the processing

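Under every alternative run, 0 of the 10 pathway genes passed the threshold. The log2 fold changes of Gfpt1, Gfpt2, Gnpda1 and Ogt kept their sign in every fit that held them, but not their size. The number of genes called over all genes, 28 with limma, was 545 with DESeq2 (125 higher, 420 lower), 43 with no filter on low counts, 228 with a weight per library, 5 with the replicate block, 8 with library number as a covariate, 51 without KP 1 and KP 5 (chosen after seeing the data) and 4 to 294 when single libraries were left out (294 without KP 5); the cause was not tested. Pathway genes with an unadjusted p under 0.05, 0 in the fit reported, were 1 with a mean TPM of at least 20 (Gfpt1; Gfpt2, Gnpda1 and Gnpda2 drop out of that fit), 2 with a weight per library (Gfpt1, Gnpda2), 1 with the replicate block (Gfpt1), 1 with library number (Gnpda1), 1 without KP 1 and KP 5 (Gnpda2) and 0 to 2 when single libraries were left out. DESeq2 called 1 of the related genes, Uap1l1.

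Fitted log2 fold changes near 0 changed sign. Library number nearly followed the groups: KPG1 1 to KPG1 5 had numbers 10, 1, 4, 5 and 9, and KP 1 to KP 4 had 11, 12, 15 and 16. Only KP 5, with number 6, lay among the KPG1 numbers, so number and genotype can hardly be told apart in a fit that holds both. With library number as a covariate the log2 fold change was -0.052 for Gnpnat1, -0.059 for Uap1, -0.11 for Gnpda2 and -0.15 for Nagk. For Pgm3 it was 0.0065 with no filter, 0.13 with library weights and 0.055 without KP 1 and KP 5. For Amdhd2 it was -0.014 with library weights and -0.055 without KP 1 and KP 5, and for Nagk -0.0077 with DESeq2. Leaving out single libraries gave -0.086 to 0.12 for Pgm3, -0.0077 to 0.10 for Uap1, -0.061 to 0.17 for Amdhd2, -0.12 to 0.10 for Nagk, 0.26 to 0.52 for Gfpt1, 0.0064 to 0.78 for Gfpt2, 0.0062 to 0.26 for Gnpnat1, -0.23 to -0.03 for Ogt, 0.19 to 0.40 for Gnpda1, 0.21 to 0.54 for Gnpda2 and 0.035 to 0.18 for the difference of Ogt and Oga. With library number as a covariate Gfpt1 was at 0.23, Gfpt2 at 0.065 and Gnpda1 at 0.52. The correlation of Gnpda1 and Gnpda2 was -0.69 with RLE factors, -0.71 on log2 TPM and -0.86 without KP 1 and KP 5, each with an adjusted exact permutation p over the threshold, and -0.86 to -0.68 when single libraries were left out. Same-numbered KP and KPG1 libraries share only a number (correlations of -0.16 to 0.08, and only the KP library of replicate 4 matched its own number best), so the block is no pairing.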
